A study of Cristatella mucedo with 12 samples.

Results

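Statoblasts, the dormant stage of the freshwater bryozoan Cristatella mucedo, were compared between storage in the freezer and 2 days in water. The comparison rests on 2 of the 12 libraries of bulk polyadenylated RNA in the series, chosen by their titles, with 1 library a side. All libraries came from wildtype animals of isolate SBPEP1. Statoblasts had been kept at -80 °C. The freezer library is known as such from its title alone, and the day 2 library was made from statoblasts left after thawing for 2 days in a room-temperature aquarium. Single libraries of days 4 and 6 continue the course, and 8 libraries of mature colonies, collected from a stream and kept in an aquarium, come from 4 zones with 2 libraries each: the central and edge zones of colonies, and the middle and end parts of elongated ones. The labels mention 2 biological replicates of every sample, but 1 library of each statoblast stage was analysed here. Because neither stage has a replicate here, no test of the difference was made, and changes are given by size.

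Freshwater bryozoans form statoblasts asexually inside the colony. Each is a capsule with a tough, chitin-containing shell around yolk-laden cells and a layer of germinal tissue. It survives cold and drying, and on germination the germinal tissue builds the first feeding individual of a new colony. Gene names are attached to 16 mitochondrial models only. Nuclear models carry bare identifiers and are described by contig and position, on an assembly that the sources used here do not name. Without gene names no defining marker of statoblast tissue could be looked up, and the label of either stage could not be checked against the data.

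The freezer library held 5604890 counts and the day 2 library 4738054. Totals ran from 14787379 to 26089111 in the mature libraries. Levels are given as CPM, the count scaled to a common library size after multiplying each total by its TMM factor (trimmed mean of M values). These factors were 1.461 and 1.496 for the freezer and day 2 libraries and 0.635 to 0.962 for the mature ones. Levels of both stages are therefore hardly moved against each other, but a level set against mature colonies depends on the scaling. In bulk RNA, fewer cells of a type and less RNA per cell cannot be told apart. A log2 change is the day 2 level over the freezer level with a prior count of 2 added, and models entered when the higher of both libraries had at least 50 counts, which 8067 of 35949 models reached. A change of at least 4-fold was taken as the size worth naming. Intervals cover counting error only, not the difference between 2 batches of statoblasts.

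Most models differed by less than 2-fold between both libraries. The log2 change of the 8067 models had a median of -0.09 and ran from -0.95 to 0.99 between the 5th and 95th percentile, and 7326 models (90.8%) changed by less than 2-fold. At least 2-fold changes were seen in 393 models that were higher (4.87% of those tested) and in 348 that were lower at day 2 (4.31%). At least 4-fold, 75 models were higher (0.93%) and 20 lower (0.248%). At least 8-fold, 28 models were higher (0.347%) and 0 lower (0%). Numbers were thus nearly balanced at 2-fold, and at 8-fold every model was higher. The smallest changes counted among the 4-fold higher models were log2 2.00, 2.01 and 2.04, and the closest ones left out were 1.98, 1.97 and 1.97. On the lower side the closest counted were -2.02, -2.04 and -2.06, and the closest left out -1.99, -1.99 and -1.94.

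The size of these changes was compared with the spread between libraries of one mature zone, the only replicate pairs in the series. All libraries were thinned at random to 4738054 counts so that depth did not set the spread. The median absolute log2 change from freezer to day 2 was then 0.361. It was 0.368 in the end part pair, 0.327 in the central zone pair, 0.270 in the edge zone pair and 0.242 in the middle part pair. A typical model therefore differed between freezer and day 2 about as much as between both end part libraries. Changes of at least 2-fold were seen in 9.25% of models from freezer to day 2, against 7.41%, 4.89%, 2.33% and 1.98% in the end, central, edge and middle pairs. Changes of at least 4-fold were seen in 93 of 7860 models (1.18%), against 68 of 8887 (0.765%) in the central, 32 of 9139 (0.35%) in the end, 13 of 8548 (0.152%) in the middle and 0 of 7377 (0%) in the edge pair. At 8-fold the order changed, with 0.356% from freezer to day 2 and 0.428% in the central zone pair. Further out it turned again: 12 models were past a log2 change of 5 from freezer to day 2 (0.153%) and 5 in the central zone pair (0.0563%), and past 6 there were 5 and 1. The mature pairs are of another tissue, and whether they stand for the spread between statoblast batches was not tested.

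The shape of the extremes differed with level. Among models with a mean of at least 1000 thinned counts, 3 of 725 changed at least 4-fold from freezer to day 2 and 21 of 646 differed so in the central zone pair. Among models with a mean of 50 to 100 counts the numbers were 22 of 1769 and 8 of 2962. Among bins of mean count from 50 up, the share past 4-fold from freezer to day 2 was highest at 50 to 100 counts. It was 1.24% there, against 0.414% in the most abundant models. In the central pair it was highest among these bins in the most abundant models, at 3.25% against 0.270%. Models with a mean under 50 counts entered through their higher library, which favours large ratios. They were left out of these bins, so the share past 4-fold at the lowest levels is not given. Starting from 0 thinned counts, 9 models reached at least 50 by day 2, against 2 in the central zone pair and 0 in the edge, end and middle pairs. In the opposite direction no model with at least 50 counts in the freezer library had 0 at day 2, while 4 models did so between the end part libraries.

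**Figure D1:**
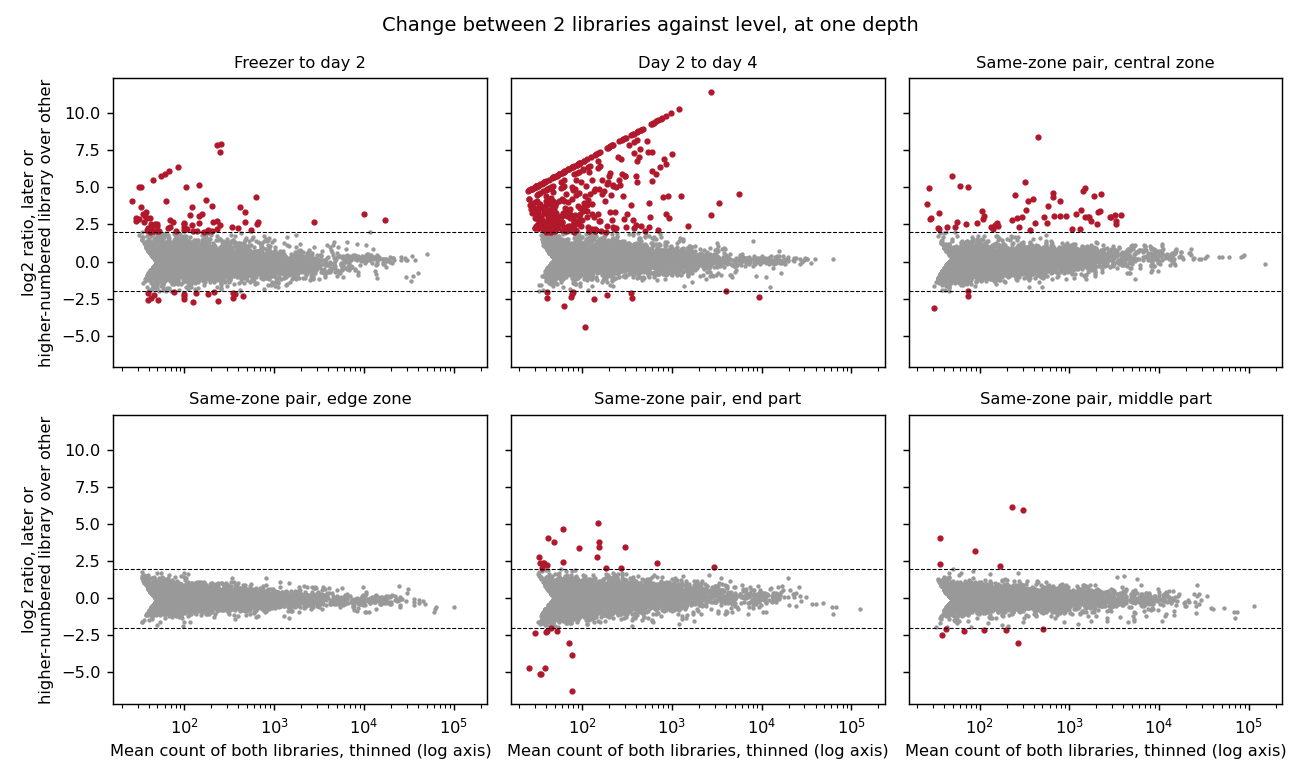
Log2 ratio of 2 libraries (vertical) against their mean count (horizontal, log axis) for each gene model with at least 50 counts in the higher library, all libraries thinned to 4738054 counts; red points are past 4-fold (dashed lines). From freezer to day 2 the red points lie mostly above 0 (75 higher, 0.954%, and 18 lower), from day 2 to day 4 there are 395, and the edge zone pair has 0.

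Taken model by model, 6269 models could be set against their own differences in the mature pairs at equal depth. For 1831 of them (29.2%) the freezer to day 2 change was larger than every one of the 4 same-zone differences. Each mature pair was also set against the other 3, and the step to day 2 against the same 3. The share was 35.9% for the step and 34.7% for the end part pair, and 34.3% against 26.7% for the central zone pair. It was 34.2% against 23.9% for the edge zone pair and 31.8% against 16.3% for the middle part pair. The models that could be compared differ between the step and each pair. By this count the step to day 2 was above every mature pair, and close to the widest of them, the end part pair. Models past 4-fold were chosen for a large change, so that most exceed their same-zone differences follows nearly from the choice, and nothing is read from it. A further 28 models past 4-fold, 23 higher and 5 lower, had under 50 thinned counts in every mature library and could not be compared.

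The next step, which shares the day 2 library, had more models in its extremes and a smaller typical change, with a median absolute log2 change of 0.318 against 0.361. At equal depth 382 models were at least 4-fold higher at day 4 than at day 2 (4.61%) and 13 were lower (0.157%), and 103 went from 0 to at least 50 counts. From day 4 to day 6, 80 were higher (0.947%) and 4 lower (0.0473%). The first step had the most lower models of the 3, at 18 (0.229%). Lower models were also relatively common at 2-fold, with 326 lower from freezer to day 2 (4.15%), 111 from day 2 to day 4 (1.34%) and 66 from day 4 to day 6 (0.781%). The median log2 change of the tested models was -0.08, 0.19 and 0.03 in the same order. These counts are not centred on it, so a part of their difference may follow from the medians. Models with a count at equal depth numbered 14818 in the freezer library, 15481 at day 2, 17240 at day 4 and 18051 at day 6. The 100 most abundant models took 31.1% of counts in the freezer library and 33.8% at day 2, and 88 models were among the 100 in both. In the mature pairs 85 to 89 were shared.

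**Figure D2:**
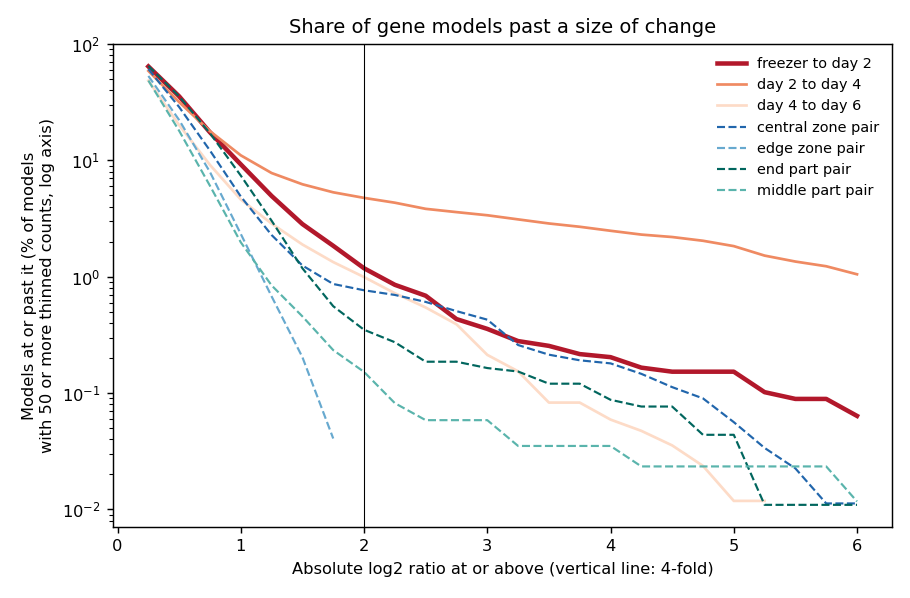
Percent of gene models with at least 50 thinned counts (vertical, log axis) whose absolute log2 ratio reaches the value on the horizontal axis, for 3 statoblast steps (solid) and 4 same-zone pairs of mature libraries (dashed). At 4-fold (vertical line) freezer to day 2 stands at 1.18%, day 2 to day 4 at 4.77% and the mature pairs between 0% and 0.765%; points at 0% are not drawn.

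The named part of the genome, the mitochondrial one, split into its RNA classes. Mitochondria encode a few subunits of the respiratory chain and of ATP synthase, together with both RNAs of their own ribosome. Both ribosomal RNAs were far higher at day 2, while the protein genes stayed within 2-fold. MT_rrnS, the RNA of the small mitochondrial ribosomal subunit (contig 594, bases 65 to 869), had 2214 counts in the freezer library and 17923 at day 2. Its level went from 270.3 to 2527.8 CPM, a ratio of 9.35 (95% counting interval 8.95 to 9.78), and stood at 2638.5 CPM on day 4 and 5811.7 CPM on day 6. In the 8 mature libraries it had a lowest level of 3617.4, a median of 5042.8 and a highest of 7142.4 CPM. The freezer library is the lowest of all 12 for this RNA. Day 2 lies below every mature library in scaled level, but by plain share of counts, at 0.378%, it lies inside the mature range of 0.241% to 0.627%.

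MT_rrnL, the RNA of the large subunit (bases 1127 to 2426), had 4887 counts in the freezer library and 30267 at day 2. Its level went from 596.7 to 4268.7 CPM, a ratio of 7.15 (interval 6.94 to 7.37). It was then 4208.4 CPM on day 4 and 8185.3 CPM on day 6. The mature libraries had a lowest level of 4672.7, a median of 5631.6 and a highest of 9753.7 CPM. The same-zone pairs differed by at most log2 0.81 for MT_rrnL and 0.54 for MT_rrnS, where the step to day 2 was 2.84 and 3.22. Both ribosomal RNAs together made up 2.77% of mitochondrial counts in the freezer library, 15.3% at day 2, 13.5% at day 4 and 25.2% at day 6, and 4.65% to 10.01% in the mature libraries. The freezer library was thus below the whole mature range in this share, and the 3 germinating stages above it. The libraries were made from RNA selected by its poly(A) tail, so these values count the ribosomal RNA that was captured in that way. Both models have fractional counts in both libraries, and how reads with several positions were counted is not stated.

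Of the 14 mitochondrial protein models, 11 had a positive and 3 a negative log2 change, none reached 2-fold, and their median was 0.26. All 3 subunits of cytochrome c oxidase, the enzyme that passes electrons to oxygen, had positive values. MT_cox1 went from 5933.7 to 8616.6 CPM (log2 0.54), MT_cox3 from 3289.5 to 4156.0 CPM (0.34) and MT_cox2 from 3737.9 to 4502.7 CPM (0.27). MT_cob, cytochrome b of the complex that reduces cytochrome c, went from 4196.3 to 5528.4 CPM (0.40). The ATP synthase subunits MT_atp6 and MT_atp8 both had 0.26. The same-zone differences of MT_cox1 were 0.20, 0.55, 0.58 and 0.70 in size, so its change lies inside their range. For MT_cob the value lay between the central pair's 0.33 and the largest difference of 0.96, and for the other protein models too it was below the largest same-zone difference, which ran from 0.44 for MT_nad5 to 1.51 for MT_atp8.

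NADH dehydrogenase, the entry point of electrons into the chain, has 8 models here and was mixed, with 5 positive and 3 negative values and a median of 0.14. MT_nad4l had the highest value at 0.45, from 393.7 to 536.4 CPM. MT_nad6 had the lowest of the 14, at -0.42, from 984.2 to 735.1 CPM, followed by MT_nad3_0 at -0.21 and MT_nad3_1 at -0.09. The counting interval of MT_nad3_1 was -0.20 to 0.02 and includes 0. The ratio of MT_nad6 to MT_cox1 counts was 0.166 in the freezer library, 0.0853 at day 2 and between 0.0762 and 0.126 in the mature libraries, so the freezer library lay outside the range of the others. Protein models together took 4.45% of counts in the freezer library and 5.61% at day 2.

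**Figure D3:**
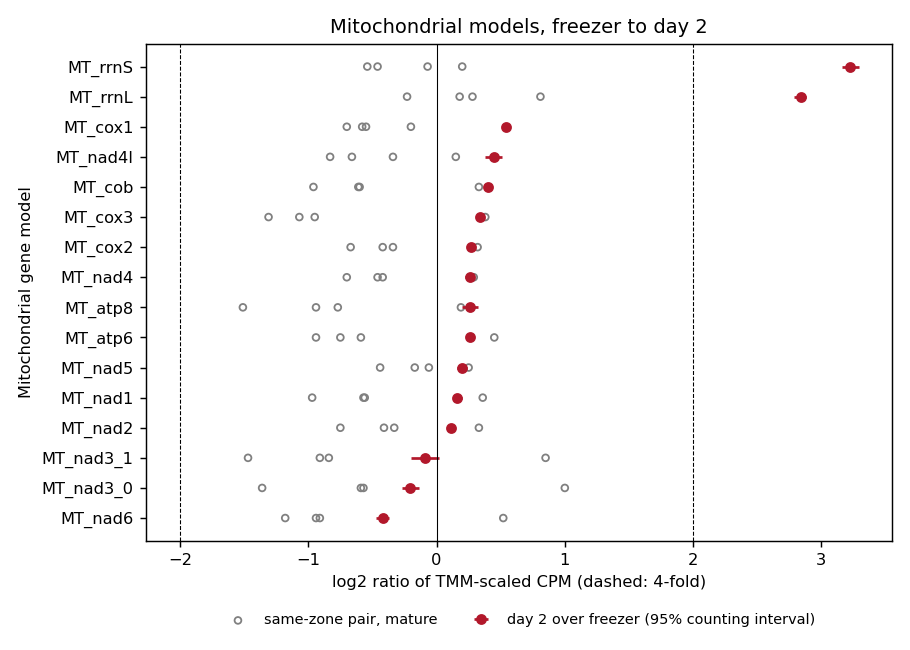
Log2 ratio of day 2 over the freezer library (red points with 95% counting intervals, many narrower than the point) for the 16 mitochondrial models, beside the ratios of the 4 same-zone pairs of mature libraries (open grey circles). MT_rrnS (3.22) and MT_rrnL (2.84) stand apart from the 14 protein models, which run from -0.42 to 0.54.

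Among the 75 models that were at least 4-fold higher, 9 had 0 counts in the freezer library and 23 had under 10. Over all 8067 models tested the numbers were the same, 9 and 23. A model with so few freezer counts entered only with at least 50 at day 2, which by itself makes a large ratio. These numbers therefore follow from the rule of entry, and nothing is read from them. The 2 largest changes among models that overlap no other both started from 0 counts. The model g8405 (contig 12, bases 6635023 to 6636615) had 0 counts in the freezer library, 505 at day 2, 12203 at day 4 and 17968 at day 6, or 0, 71.2, 1669 and 1767 CPM. Against a floor of 3 counts in the freezer library it was at least 194.4-fold higher at day 2. The exact 95% interval, which also takes in the counting error of the day 2 library, has the lower limit of 157.5. Its mature libraries had a lowest level of 0.0707, a median of 0.183 and a highest of 0.552 CPM, with 34 counts over all 8. It was thus abundant after day 2 and close to absent both before and in colonies.

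The model g25322 (contig 123, bases 183429 to 186036) had 0, 461, 7231 and 13672 counts from freezer to day 6, or 0, 65.0, 989 and 1344 CPM. It was at least 177.5-fold higher at day 2 by the same floor, with a lower limit of 143.8 by the exact interval. In mature colonies it had a lowest level of 0.548, a median of 1.66 and a highest of 3.86 CPM. A floor of 3 counts corresponds to 0.366 CPM in the freezer and 0.423 CPM at day 2. Both were higher again on day 4, and the day 2 level was 4.27% of that on day 4 for g8405 and 6.57% for g25322. Of the 29 models with 0 counts in the freezer library and at least 1000 on day 4, 15 had 0 counts at day 2 and 4 had at least 50, so the share was not uniform. The part that carry-over between libraries, or statoblasts at unequal stages, has in the day 2 counts of these 4 models was not tested.

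The other 7 models without a freezer count fell into different courses. As with those named, 2 had a day 2 level of a few percent of day 4. On contig 86 (bases 105541 to 110904) and contig 67 (bases 776090 to 872516), levels of 17.2 and 12.6 CPM at day 2 were 4.581% and 4.596% of those at day 4. Both are colony models as well, with mature medians of 153.5 and 230.7 CPM. On contig 4 (bases 11150482 to 11155947) and contig 18 (bases 2230456 to 2248640) the day 2 levels of 24.0 and 19.0 CPM were 85.5% and 92.2% of day 4, and both were higher again at day 6. On contig 73 (bases 1243558 to 1249199) and contig 11 (bases 4819961 to 4842949), the day 2 levels of 9.17 and 15.5 CPM were above those of day 4, at 3.42 and 6.84 CPM. The model on contig 73 had 1 count over all mature libraries. The last of them, on contig 26 (bases 4452362 to 4453866), stood at 8.89 CPM at day 2 and 30.0 CPM at day 4.

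The 20 models that were at least 4-fold lower had no extreme losses. Their log2 changes ran from -2.70 to -2.02, and each kept at least 6 counts at day 2. The largest change among non-overlapping models was that of g18551 (contig 1, bases 20308309 to 20309752), with 57 counts in the freezer library and 6 at day 2. From freezer to day 6 its levels were 6.96, 0.846, 0.274 and 0.393 CPM. The freezer level was 8.23 times that of day 2, with a counting interval of 3.56 to 23.4. Mature libraries held 3.69 CPM at the lowest, a median of 9.99 and 12.5 CPM at the highest, so the transcript was present before and in colonies and scarce in between.

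The model g35840 (contig 17, bases 5833917 to 5839277) had the same course at a higher level. It had 252 counts in the freezer library and 32 at day 2, with levels of 30.8, 4.51, 1.23 and 1.97 CPM from freezer to day 6. The freezer level was 6.82 times that of day 2 (interval 4.71 to 10.2). The mature libraries had a lowest level of 11.3, a median of 24.6 and a highest of 31.5 CPM. The largest same-zone difference in mature colonies was log2 0.71 for this model and 0.86 for g18551.

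**Figure D4:**
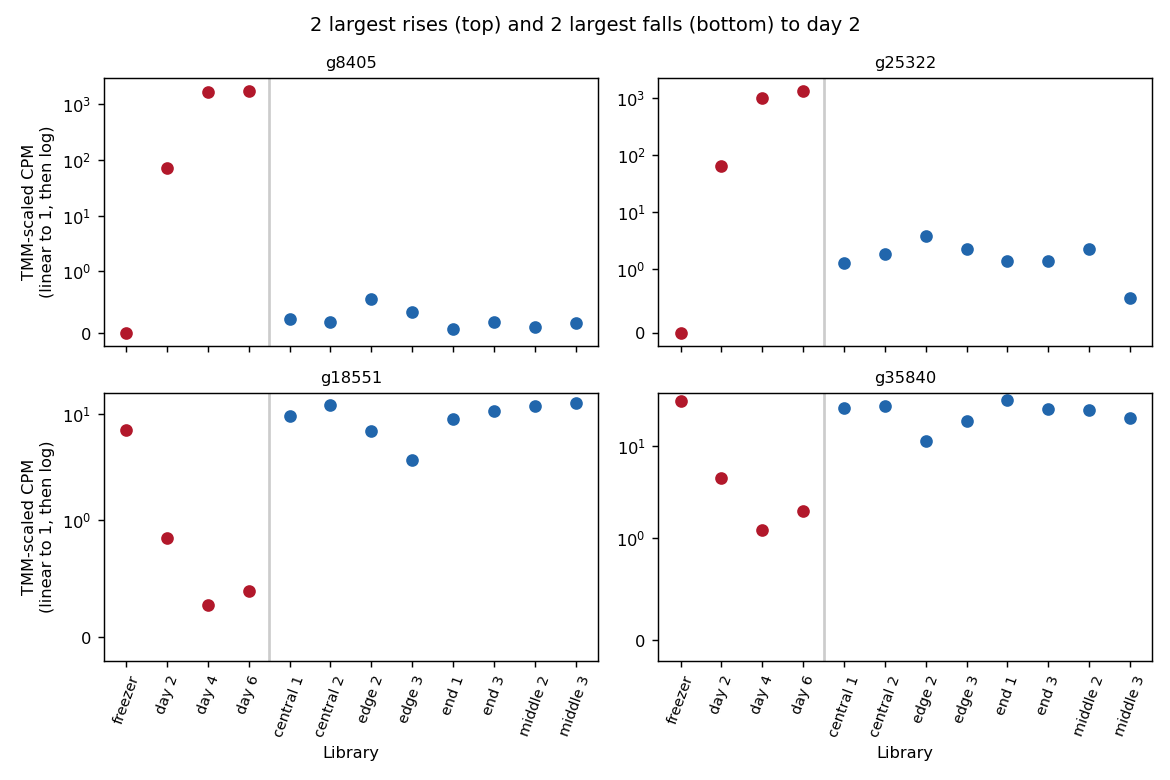
TMM-scaled CPM (vertical, linear up to 1 and log above) in each of the 12 libraries for the 2 largest rises, g8405 and g25322, and the 2 largest falls, g18551 and g35840, to day 2. Red points are the statoblast stages and blue points the mature libraries; g8405 stays at or below 0.552 CPM in every mature library and reaches 1767 CPM at day 6.

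The models past 4-fold were chosen on the freezer and day 2 libraries, so their levels there are a description. The other 10 libraries were not used. The 75 higher models had a median of 2.69 CPM in the freezer, 24.0 on day 2, 28.0 on day 4 and 42.1 on day 6. The 20 lower models had medians of 24.1 and 4.58 CPM, and then 5.33 and 5.11 CPM on days 4 and 6. All 8067 models had 25.03, 24.4, 28.3 and 29.1 CPM in the same order. Both sets therefore stayed near or moved beyond their day 2 level in later libraries rather than returning to that of the freezer library. In the mature libraries the higher models had medians of 18.4 to 21.8 CPM, the lower ones of 10.2 to 20.2 CPM and all models of 18.8 to 23.2 CPM. The lower models had their lowest mature medians in both edge libraries, at 10.5 and 10.2 CPM.

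**Figure D5:**
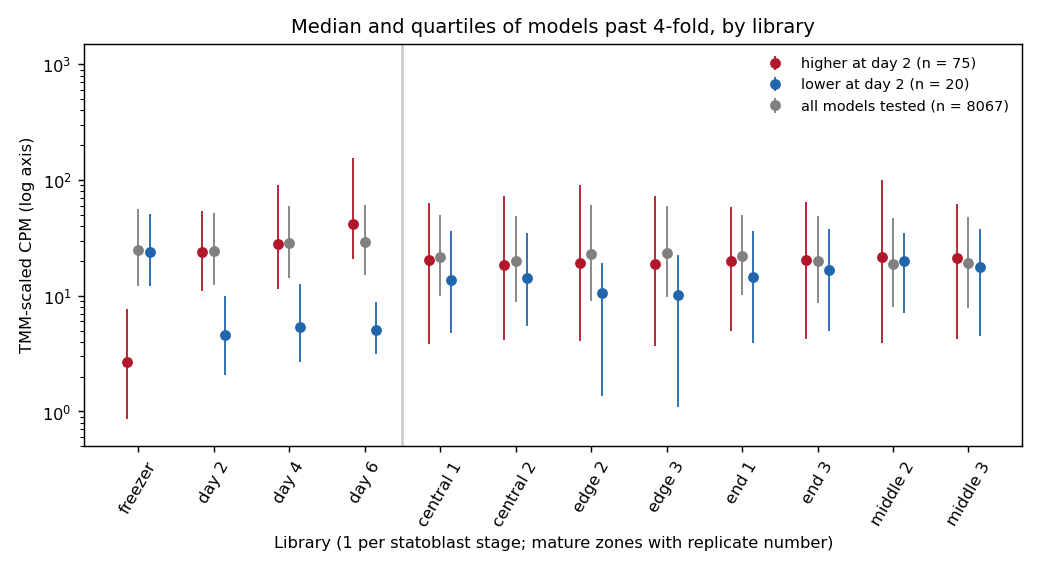
Median (points) and quartiles (bars) of TMM-scaled CPM (vertical, log axis) in each library for the 75 models at least 4-fold higher at day 2, the 20 lower ones and all 8067 tested. Medians of the higher models go from 2.69 CPM in the freezer library to 42.1 CPM at day 6, while those of the lower models go from 24.1 to 5.11 CPM.

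Models past 4-fold in either direction less often had at least 5 CPM in every mature library than tested models in general, as a description. This measure rests on the lowest of the 8 levels, so a low level in a single zone is enough to fail it. Of the 75 higher models, 48 (64.0%) had at least 5 CPM in all 8 mature libraries, against 78.8% of all models tested. Of the 20 lower models 11 (55%) did so, and 1 was under 0.5 CPM in every mature library. The trait was thus not particular to the higher models. Among the higher models, 5 were under 0.5 CPM in every mature library (6.67%, against 1.60% of all). One of these, on contig 18 (bases 3082136 to 3082926), was the most abundant, with 107.3 CPM in the freezer library, 684.2 at day 2, 1780 at day 4 and 1192 at day 6, and 4 counts over all mature libraries. The freezer level of the higher models lay below all 8 mature libraries for 57 of 75 (76.0%, against 29.6% of all), a share that the choice of models with a low freezer level raises. At day 2 it lay below them for 21 (28.0%, against 30.0% of all).

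The higher models were short. Their median span from begin to end, introns included, was 4684 bases, against 17090 for all models tested and 17194 for the lower models. Over the nuclear models the rank correlation of span with the thinned log2 change was -0.17 (7844 models, which are not independent replicates). The same correlation was -0.25 and 0.29 in the central and edge pairs and -0.01 and 0.00 in the end and middle pairs, so the relation was as wide in size between libraries of the central or the edge zone. From day 2 to day 4, a step that shares the day 2 library, it was 0.16. Whether span goes with the rise or with the single day 2 library was not tested. Of the higher models 17 (22.7%) overlap another model, against 28.0% of all.

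A few of the higher models were neighbours, counted among models that reached 50 counts, so that models with fewer may lie between them. They lay on 47 contigs, and contig 65 held the most, with 7 of its 42 tested models (16.7%, against 0.93% of all tested). By number, 5 of 210 on contig 2 came next (2.38%), where contig 68 had 3 of 32 (9.38%). Runs of at least 3 neighbouring loci in one direction numbered 2, both higher. The 3 loci on contig 65, from base 823241 to 838141, had a joint level of 26.4 CPM in the freezer, 187.2 on day 2, 294.9 on day 4 and 514.2 on day 6. Their joint mature levels were 156.8 CPM at the lowest, a median of 227.5 and 521.8 CPM at the highest. The 3 loci on contig 68, from base 1050412 to 1127882, had 35.0, 177.4, 167.1 and 337.2 CPM over the 4 stages and 118.8 to 204.5 CPM in mature colonies. Between these 3 lie 6 models with fewer than 50 counts in both libraries, and between those on contig 65 lie 0. Both runs thus reached colony levels by day 2.

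Contig 65 held another kind of pair further along. There, 2 neighbouring loci from base 1956415 to 1983340 together had 12.9 CPM in the freezer, 97.9 on day 2, 53.3 on day 4 and 55.2 on day 6, with 8 counts over all mature libraries. A further 2, from base 2087040 to 2094801, had 8.43, 46.0, 26.5 and 25.4 CPM, with 79 mature counts. Both peaked at day 2 among the 12 libraries. On contig 77, 2 loci between bases 1156458 and 1167787 went from 1.10 CPM in the freezer library to 47.5 at day 2, 199.1 at day 4 and 980.2 at day 6, above the mature range of 32.5 to 262.4 CPM, and 1 model with fewer counts lies between them. No run of 2 or more neighbouring loci was lower.

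Measured by amount of RNA, the largest changes were in models that were abundant in both libraries. The 5 largest rises in CPM were MT_rrnL, MT_cox1, MT_rrnS, a nuclear model and MT_cob. The nuclear one, on contig 9 (bases 608603 to 620131), had 676.2 CPM in the freezer and 2646 on day 2, a ratio of 3.91 (interval 3.80 to 4.03), then 3307 CPM at day 4 and 4041 at day 6. It stood above its mature range of 500.0 to 852.1 CPM from day 2 on.

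The 5 largest falls in CPM were all nuclear and about 2-fold. On contig 95 (bases 69278 to 73677, overlapping another model) the level was 6837 CPM in the freezer and 2760 at day 2, then 831.0 and 790.1 CPM. Its freezer level was 2.48 times that of day 2 (interval 2.44 to 2.52), and the mature libraries held 51 counts in all. On contig 28 (bases 1376666 to 1427121) the level went from 6662 to 3391 CPM and then stood at 3491 and 2470 CPM, with 9.05 to 15.6 CPM in mature colonies. On contig 37 (bases 1629830 to 1632295, overlapping another model) it went from 7158 to 4195 CPM and then stood at 3804 and 2565 CPM, with at most 1.51 CPM in mature colonies. All 3 were far lower in colonies than in any statoblast library, and those on contigs 95 and 37 were scarce there. The 4th, on contig 18 (bases 5054560 to 5057942), went from 5737 to 2818 CPM and stood at 2542 and 3728 CPM later, and is abundant in colonies too, at 4244 to 11839 CPM. The last, on contig 40 (bases 2698435 to 2712157), went from 2708 to 1278 CPM, with 1171 and 1136 CPM later and 293.7 to 447.8 CPM in colonies.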

How the data were processed

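For all 12 libraries, unnormalized expected counts by gene model were deposited in a single table. Per the submitters' processing notes, HISAT2 2.1.0 and featureCounts 1.5.1 were among the tools. Their settings, the assembly, its annotation and the treatment of shared reads are not stated there, although many values hold fractions. Libraries were prepared with a directional kit, per the labels' protocols, and run either paired-end or single-end, with no library assigned to either mode. Contig, begin and end were used as deposited.

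Counts were rounded to whole numbers. TMM factors over the 12 libraries came from edgeR 4.0.16 and size factors from DESeq2 1.42.0, in R 4.3.3; neither was used for a test. Ratios, exact (Clopper-Pearson) intervals of the ratio of both counts and thinning to 4738054 counts were computed in Python 3.11.15 with scipy 1.17.1. The rule of size was run on simulated counts that held counting error alone, scaled by library totals and centred on their median. Such counts hold no spread between libraries, so they cannot show how often that spread passes the rule. The labels do not say whether same-zone libraries came from separate colonies. No pair was a duplicate, since counts of the mature pairs differed by a chi-square of 38.8 to 67.1 per model.

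Identifiers are the 2 largest rises and falls among models that overlap no other; the 5 largest rises and falls in CPM and runs of at least 3 loci go by position. The remaining positions, including pairs of loci and models with 0 freezer counts, were picked after their values were seen. The comparison, the rules and the lists were chosen with earlier results of these data known.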

Additional observations from a re-analysis of the deposited data

How the results depend on the processing

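The counts of models past 4-fold depended mainly on the limits chosen. The number tested changed with the count minimum too, from the 8067 with 75 higher and 20 lower. With at least 20 counts there were 142 higher and 47 lower of 9935 tested, and with at least 100 counts 49 and 15 of 6370. With no minimum there were 276 higher and 82 lower of 16724, and a median absolute log2 change of 0.503. At 2-fold there were 393 and 348, and at 8-fold 28 and 0. With runs of at least 4 loci required, the 2 runs became 0. Scaling by library totals, by TMM of both libraries alone, by DESeq2 size factors or by totals without mitochondrial models gave 75 to 80 higher and 17 to 20 lower, and the median log2 change of all models ran from -0.09 to -0.02. Centring on that median was added after seeing the data and moved neither count by 1.5 times. Leaving out overlapping models gave 58 and 16 of 5808 tested. Without each mature replicate in turn, which removes its zone, the mean share of models past 4-fold in same-zone pairs (0.317%) ran from 0.167% to 0.4225%, lowest without the central zone, and the mean of the median absolute log2 differences (0.302) from 0.279 to 0.321. The number of models exceeding their same-zone differences (1831) ran from 1979 to 2204 in this way, with fewer pairs to exceed. With counts as deposited, not thinned to equal depth, that number was 2496, and with scaling by library totals 1712. Of 120 values for the 20 named models, 20 moved beyond the counting interval and 0 changed direction; the fitted log2 changes of g8405 (6.78 to 10.09) and g25322 (6.65 to 9.96) depend on the prior count. No paired analysis was possible because each statoblast stage has 1 library and no test was made. Depth limits the higher models most, since 23 of the 75 have under 10 freezer counts and 9 have 0, where 1 of the 20 lower models has under 10 counts at day 2.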

Other observations

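Of the 45 models with 0 counts in the freezer library and 300 to 1000 counts at day 4, 21 had 0 counts at day 2 and 0 had at least 50. Among those with at least 1000 counts at day 4, the upper quartile of the day 2 level was 0.903% of the day 4 level. These models were picked on the freezer and day 4 libraries after their values were seen.

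Changes between freezer and day 2 were also taken by contig. Over the 100 contigs with at least 20 tested models, the median log2 change ran from -0.42 to 0.23. Tested models lay on 295 contigs, and those with fewer models, the mitochondrial contig among them, were not examined in this way.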
